A study of Danio rerio with 24 samples.

Results

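The genes described here are 143 Ensembl IDs, of 31087 in the table, whose mean FPKM in sorted GFP+ cells was lower at both 3 h and 5 h after neomycin than after mock treatment. FPKM is the number of fragments scaled to transcript length and to the mapped fragments of the library. Genes were selected on those GFP+ group means. A gene was taken where its GFP+ mock mean was 10 FPKM or more and where (group mean + 1) divided by (mock mean + 1) was 0.5 or less at both times. Another 6 IDs met both limits but were set aside and are not described one by one here. Of the 7122 IDs at 10 FPKM or more in GFP+ mock, a further 167 met the ratio at 3 h alone and 59 at 5 h alone. Because the GFP+ mock, 3 h and 5 h values chose the members, the members' own values in these groups are given as a description with no test.

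All larvae were Tg(sqET20) zebrafish, an enhancer trap line whose GFP marks lateral line cells among others, and all were 5 days post fertilization. They received 300 µM neomycin for 30 min or mock treatment, and each sample pooled 200 larvae. About 30000 living GFP+ or GFP- cells per sample went into RNA extraction. There are 24 libraries in 8 groups of 3, namely mock (sampled at 1 h), 1 h, 3 h and 5 h after neomycin in GFP+ cells and the same in GFP- cells. Mock and 1 h libraries carry the experiment date Mar2012 and those of 3 h and 5 h carry Apr2012, so within a population neomycin at 3 h or 5 h, date and time since handling cannot be told apart. GFP- cells were sorted over the same dates and times and took no part in choosing the members.

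The lateral line is a series of superficial sensory organs, the neuromasts, in which mechanosensory hair cells sit among supporting cells and mantle cells. Aminoglycosides such as neomycin kill hair cells, and supporting cells then divide and replace them. Hair cells carry calcium-binding proteins of the S100 and parvalbumin families, while supporting and surrounding skin cells are rich in keratins.

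Total counts per library are not known, and depth relative to the median library, read from the steps between low values, was 0.727 to 0.841 at GFP+ 3 h and 0.946 to 1.1 at GFP+ 5 h, against 0.871 to 1.21 in GFP+ mock. Members and the IDs set aside were left out of the marker sums. The summed FPKM of 35 lateral line and supporting cell markers was 5074 to 5384 at GFP+ 3 h and 5214 to 6157 at GFP+ 5 h, against 6336 to 7385 in GFP+ mock and 846 to 878 in GFP- mock. The sum of 32 hair cell markers was 1406 to 2275 at GFP+ 3 h and 1639 to 2359 at GFP+ 5 h, against 2204 to 2656 in GFP+ mock, so the groups overlapped. The sum of 23 blood and immune markers was 572 to 1027 at GFP+ 3 h and 414 to 831 at GFP+ 5 h, against 225 to 392 in GFP+ mock and 18590 to 21400 in GFP- mock. None of these lists had a marker at 0 in all 12 GFP+ libraries. The part of a changed cell make-up in the values below was not tested, and in bulk samples fewer cells of a type and less RNA per cell cannot be told apart.

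The members fall into 2 kinds by how they were detected. A first kind of 67 IDs was above 0 in all 12 GFP+ libraries; it holds all 39 members with a gene symbol, 7 with a clone-like symbol and 21 with none in the name table. The other 76 IDs were listed at 0 in at least 1 GFP+ library; they are 54 IDs with no symbol, 14 microRNA loci and 8 loci named 5S_rRNA. In the 67, the median ratio to GFP+ mock was 0.734 at 1 h, 0.372 at 3 h and 0.403 at 5 h, and the lowest ratio was 0.18 at 3 h and 0.213 at 5 h. All 3 libraries lay below all 3 mock libraries in 56 of the 67 at 3 h and in 55 at 5 h. Over all 21860 IDs tested such separation occurred in 11.8% at 3 h and 8.27% at 5 h, shares given as background only since the rule used these libraries.

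The members nearest to the limit show how it cuts a continuous range. Just inside among genes with a symbol were PPIL1 and the matrix protein gene TNC, whose larger ratios were 0.497 and 0.499, and the clone-like si:ch211-281l24.3 was nearer still at 0.4996. Just outside were mhc1uma, anxa5a and ctss2.2, at 0.502, 0.503 and 0.503.

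The cytoskeletal members were 7, and the keratins were the most abundant of all members with a gene symbol. krt15, a keratin of lateral line and skin cells, had 1277, 1303 and 1029 FPKM at GFP+ 3 h and 1443, 1781 and 2402 FPKM at GFP+ 5 h, against 4364, 3026 and 4667 FPKM in GFP+ mock. krt91, a second keratin, had 870, 745 and 596 FPKM at GFP+ 3 h and 943, 827 and 1286 FPKM at GFP+ 5 h, against 3186, 2057 and 2567 FPKM in GFP+ mock. In both genes no 3 h or 5 h library reached a mock library. krt15 lies close to the limit at 5 h, with a ratio of 0.467, and no longer met it when mock library 3 or 5 h library 1 was left out.

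VIM, the intermediate filament protein vimentin, had 95.4, 96.0 and 75.7 FPKM at GFP+ 3 h and 91.9, 121 and 81.4 FPKM at GFP+ 5 h, against 259, 191 and 270 FPKM in GFP+ mock. MYL9, a regulatory light chain of non-muscle and smooth muscle myosin, averaged 14.7 ± 1.1 FPKM at GFP+ 3 h and 13.9 ± 1.5 FPKM at GFP+ 5 h, against 40.7 ± 10.9 FPKM in GFP+ mock (SD, n = 3 each). Its ratio at 1 h was 1.04, so its mean stood at the mock level an hour after treatment. ccdc65, whose product belongs to a regulatory complex of motile cilia, had 8.25 to 11.4 FPKM at GFP+ 3 h and 6.64 to 11.3 FPKM at GFP+ 5 h, against 23.4 to 27.1 FPKM in GFP+ mock. GPSM2, which orients the mitotic spindle, and CASKIN2, a scaffold protein, had ratios of 0.485 and 0.432 at 3 h and of 0.448 and 0.486 at 5 h.

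**Figure D1:**
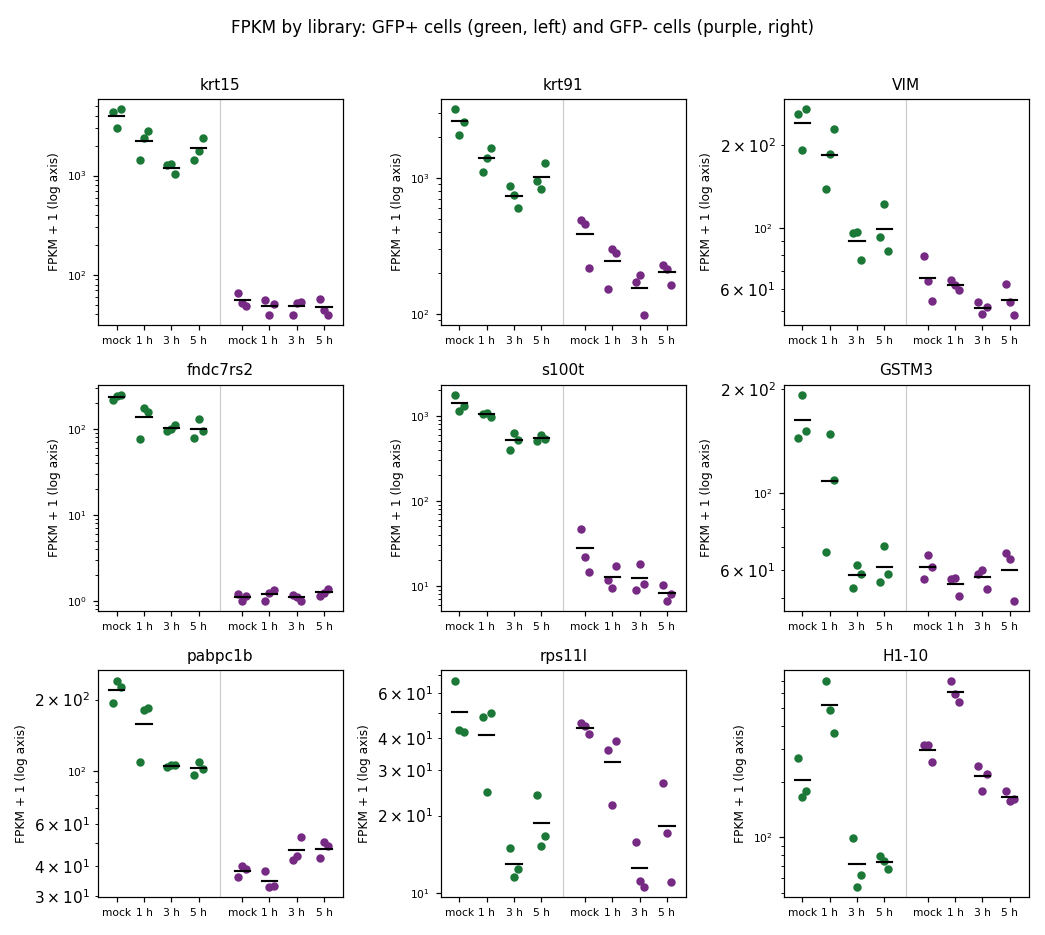
FPKM + 1 on a log axis for 9 members; each point is 1 library, the bar is the group mean, GFP+ cells are green on the left and GFP- cells purple on the right of each panel. krt15, fndc7rs2 and s100t were high in GFP+ cells and lower in every 3 h and 5 h GFP+ library than in every mock library, and H1-10 was highest at 1 h in both populations.

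Secreted, matrix and cell surface proteins made up 16 of the 39 members with a gene symbol, with median ratios of 0.425 at 3 h and 0.413 at 5 h. fndc7rs2, a gene of a fish family with fibronectin type III domains, had 93.5, 97.2 and 110 FPKM at GFP+ 3 h and 76.0, 130 and 92.7 FPKM at GFP+ 5 h, against 215, 241 and 246 FPKM in GFP+ mock. The groups did not overlap, and in all 12 GFP- libraries the gene stayed between 0 and 0.377 FPKM. thy1, a cell surface glycoprotein anchored by a lipid, had 61.5 to 89.9 FPKM at GFP+ 3 h and 53.7 to 109 FPKM at GFP+ 5 h, against 150 to 205 FPKM in GFP+ mock.

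Several of these genes differed widely among the 3 mock libraries. MYOC, the secreted olfactomedin-domain protein myocilin, had 35.9, 30.1 and 29.3 FPKM at GFP+ 3 h and 43.1, 30.32 and 65.3 FPKM at GFP+ 5 h, against 58.2, 220 and 164 FPKM in GFP+ mock. Mock library 1 was likewise the lowest mock library for olfml2ba (12.3 against 37.1 and 31.2 FPKM in the other mock libraries) and for TNC (3.58 against 18.9 and 14.9 FPKM). For TNC, the matrix protein tenascin C, 3 h libraries of 4.17 to 6.13 FPKM and 5 h libraries of 4.41 to 7.6 FPKM therefore lay above that mock library. The opposite held for LECT2, a secreted protein made by liver in mammals, where 30.1 FPKM in mock library 1 against 4.48 and 4.29 FPKM in the others carried the mock mean. LECT2 had 6.51, 1.70 and 3.52 FPKM at GFP+ 3 h and 5.49, 4.82 and 4.58 FPKM at GFP+ 5 h, so the 5 h libraries all lay above mock libraries 2 and 3.

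The genes scpp9 and enam encode secreted proteins of the calcium-binding phosphoprotein family of mineralized tissue, and they lie 5 protein-coding genes apart in the RefSeq order of zebrafish assembly GRCz12tu. scpp9 had 8, 3.96 and 22.6 FPKM at GFP+ 3 h and 20.6, 0.265 and 24.99 FPKM at GFP+ 5 h, against 32.8, 44.0 and 102 FPKM in GFP+ mock. enam had 12.1 to 25.1 FPKM at GFP+ 3 h and 12.8 to 21.1 FPKM at GFP+ 5 h, against 33.5 to 54.5 FPKM in GFP+ mock. scpp9 spread over a wide range within each group while its 3 h and 5 h values stayed below mock. At 1 h the ratios of scpp9 and enam were 1.07 and 0.654.

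Among ligands and their carriers, fgfbp2b, a secreted Fgf-binding protein, had a ratio of 0.344 at 3 h and 0.471 at 5 h. The peptide hormone adrenomedullin (ADM) had ratios of 0.442 at 3 h and 0.356 at 5 h, with mock libraries of 16.0, 41.5 and 18.9 FPKM and a 3 h library of 18.8 FPKM among them. The neuropeptide gene grp had 4.28, 6.95 and 4.09 FPKM at GFP+ 3 h and 3.68, 7.01 and 3.93 FPKM at GFP+ 5 h, against 15.04, 14.8 and 10.9 FPKM in GFP+ mock. Ratios of ECRG4, SSPN, CLEC3B, ITLN1 and ms4a17a.9 spanned 0.228 to 0.476 at the earlier time and 0.213 to 0.454 at the later one.

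The 7 members that bind calcium, carry solutes or catalyse reactions were led in level by s100t, an EF-hand calcium-binding protein of hair cells. It had 391, 618 and 522 FPKM at GFP+ 3 h and 498, 595 and 538 FPKM at GFP+ 5 h, against 1749, 1135 and 1300 FPKM in GFP+ mock. GSTM3, a glutathione S-transferase, had 52.3, 61.1 and 57.4 FPKM at GFP+ 3 h and 54.3, 69.6 and 57.4 FPKM at GFP+ 5 h, against 143, 191 and 150 FPKM in GFP+ mock. Its GFP- libraries ran from 48.0 to 66.0 FPKM over all 4 groups, so the GFP+ level at 3 h and 5 h lay in or near the GFP- range. mfsd2al2, a transporter of the major facilitator family, had the lowest 3 h ratio of the 67, 0.18, with 4.07 to 5.89 FPKM at GFP+ 3 h and 6.25 to 11.9 FPKM at GFP+ 5 h, against 27.0 to 36.2 FPKM in GFP+ mock. kcnip3a, an EF-hand protein that binds potassium channels, fthl30, a ferritin heavy chain, and mpdu1a, which acts in glycan synthesis, had ratios of 0.367 to 0.405 at 3 h and 0.299 to 0.423 at 5 h.

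ca15c, a carbonic anhydrase, varied widely within groups. It had 6.12, 11.6 and 8.06 FPKM at GFP+ 3 h and 18.5, 4.01 and 2.29 FPKM at GFP+ 5 h, against 13.4, 21.5 and 28.1 FPKM in GFP+ mock. The 5 h library of 18.5 FPKM lay within the mock range, and the gene met the rule in 6 of the 9 calculations that leave out 1 library.

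Of the 9 members that act in chromatin, transcription, RNA or translation, the linker histone gene H1-10 had 97.6, 53.0 and 61.5 FPKM at GFP+ 3 h and 77.9, 73.4 and 65.8 FPKM at GFP+ 5 h, against 267, 163 and 177 FPKM in GFP+ mock. HOXB13, a homeobox transcription factor of the posterior body, had 16.9, 30.4 and 11.6 FPKM at GFP+ 3 h and 25.2, 25.5 and 55.0 FPKM at GFP+ 5 h, against 29.9, 125 and 97.3 FPKM in GFP+ mock. Its mock library 1 lay within the 3 h and 5 h range. pabpc1b, a poly(A)-binding protein, had 103, 105 and 106 FPKM at GFP+ 3 h and 95.5, 109 and 102 FPKM at GFP+ 5 h, against 193, 239 and 225 FPKM in GFP+ mock. eif4ebp3, a repressor of translation initiation, had ratios of 0.386 at 3 h and 0.478 at 5 h, and dap1b, of the death-associated protein family, 0.362 and 0.384. How reads of near-identical gene copies were shared out is not given in the sources used here, so values of rps11l, fndc7rs2, ms4a17a.9 and other family members are uncertain to that extent.

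The 1 h GFP+ libraries were not used by the rule, but mock was, so their ratios too are a description. Of the 67, 12 had a 1 h ratio of 0.5 or less, 42 lay between 0.5 and 1 and 13 were at 1 or more. nupr1a, a small stress-induced nuclear protein, already stood at its later level, with means of 138 FPKM in mock, 45.0 FPKM at 1 h, 40.0 FPKM at 3 h and 65.5 FPKM at 5 h. MYOC, olfml2ba and ca15c were the other members with a gene symbol at 0.5 or less, with 1 h ratios of 0.467, 0.426 and 0.283. The linker histone gene H1-10 went the other way, with a 1 h ratio of 2.55.

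**Figure D2:**
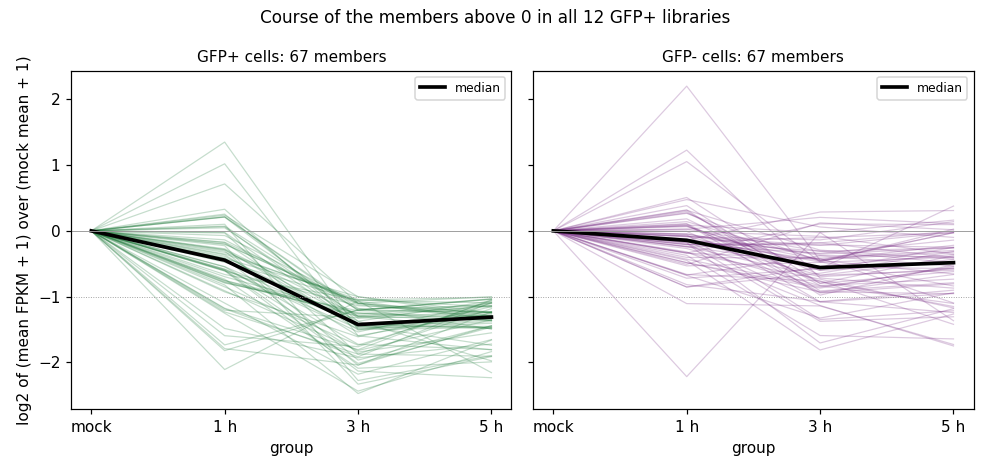
Log2 of (group mean FPKM + 1) over (mock mean + 1) for the 67 members above 0 in all 12 GFP+ libraries, in GFP+ cells (left) and GFP- cells (right), with 1 line per member and the median in black; the dotted line is a ratio of 0.5. All GFP+ lines lie at or under the dotted line at 3 h and 5 h because the rule demands it, and the GFP- median lies between 0 and the dotted line.

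GFP- cells showed how the members behaved over the same dates and times in a population the rule did not use. Values were taken as log2(FPKM + 1) and tested with limma over 21860 IDs with Benjamini-Hochberg adjustment at 0.05. The log2 fold changes are on that scale, which understates changes of low genes. Of the 143 members 130 passed the filter on low values, which high GFP+ values alone could meet, and 26 of the 130 had a GFP- mock mean under 1 FPKM, 6 of them at 0 in all 12 GFP- libraries. At 3 h, 14 of the 130 were lower than in GFP- mock, which is 10.8% where 2.11% of all IDs tested were lower, and none was higher (1 at an unadjusted p under 0.05) where 2.31% of all IDs were. At 5 h, 10 of the 130 were lower, which is 7.69% where 0.563% of all IDs tested were lower, and none was higher (3 at an unadjusted p under 0.05) where 0.48% of all IDs were. At an unadjusted p under 0.05 in limma, 33 members were lower at 3 h and 31 at 5 h. No share of all IDs at an unadjusted p is given, so the unadjusted counts are a description. The median log2 change over the members was -0.47 at 3 h and -0.41 at 5 h, beside 0.00 and -0.03 over all IDs tested. All 14 and all 10 calls were among the 104 members tested with a GFP- mock mean of 1 FPKM or more, which is 13.5% at 3 h and 9.62% at 5 h. Of the 6957 IDs tested with such a GFP- mean and 10 FPKM or more in GFP+ mock, 2.8% were lower at 3 h and 0.676% at 5 h. With a fit of the compared groups alone, 5 members were lower at 3 h and 3 at 5 h. The 5 include a member that was not among the 14. Those of the 14 that kept their call were ENSDARG00000075490, ENSDARG00000085981, rps11l and dap1b. That fit called 20 of all IDs tested lower at 3 h. Its count over all IDs at 5 h is not given, so the 3 are a description. Both times were set against the same GFP- mock libraries.

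Of the 67 members above 0 in all GFP+ libraries, 13 were lower in GFP- cells at 3 h and 9 at 5 h. These are 19.4% and 13.4%, beside 2.11% and 0.563% of all IDs tested. No share was computed over IDs detected and expressed like the 67, so their shares are a description. By the order of libraries alone, all 3 GFP- libraries lay below all 3 GFP- mock libraries in 31 of the 67 at 3 h and in 24 at 5 h, where 12.6% and 11.6% of all IDs did. A GFP- ratio of 0.5 or less at both times was found in 8 of the 67. The share of all IDs with such ratios was not computed, so this count is a description only.

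The ribosomal protein gene rps11l had the largest GFP- fall at 3 h among the members with a gene symbol that were called lower. It had 14.8, 10.17 and 9.61 FPKM at GFP- 3 h and 25.7, 16.2 and 10.03 FPKM at GFP- 5 h, against 44.8, 43.7 and 40.3 FPKM in GFP- mock. Its log2 change was -1.83 ± 0.31 (SE) at 3 h with an adjusted p of 0.00391 in limma and -1.36 ± 0.31 at 5 h with an adjusted p of 0.0437. The 5 h call was lost, with adjusted p of 0.0895 to 0.168 in limma, without GFP- mock library 1, 2 or 3 or 5 h library 2 or 3. It was also lost with one of 0.233 in a fit of the compared groups alone. With a pseudocount of 0.1, no filter or median-of-ratios scaling the 5 h call narrowly failed, with adjusted p of 0.0558, 0.05 and 0.0504 in limma. GFP+ cells gave nearly the same levels, 14.0, 10.5 and 11.4 FPKM at GFP+ 3 h and 23.0, 14.2 and 15.7 FPKM at GFP+ 5 h, against 65.8, 41.9 and 41.3 FPKM in GFP+ mock.

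dap1b had 171, 139 and 159 FPKM at GFP- 3 h and 208, 158 and 151 FPKM at GFP- 5 h, against 305, 323 and 277 FPKM in GFP- mock, with no overlap at either time. Its log2 changes were -0.95 ± 0.14 at 3 h and -0.82 ± 0.14 at 5 h, with adjusted p of 0.00142 and 0.00668 in limma. The 5 h call of dap1b was lost in a fit of the compared groups alone, with an adjusted p of 0.168 in limma. mpdu1a fell by 0.93 and 0.96 on the log2 scale in GFP- cells at 3 h and 5 h, with adjusted p of 0.00255 and 0.00324 in limma over all groups, and of 0.0564 and 0.127 with the compared groups alone.

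Further calls at 3 h were krt91, nupr1a, CASKIN2 and PPIL1, with log2 changes of -1.30, -0.87, -0.78 and -0.69, and each of these was lost when some single libraries were left out. With the compared groups alone the adjusted p in limma was 0.164 for krt91, 0.0909 for nupr1a, 0.0876 for CASKIN2 and 0.103 for PPIL1, so none of these calls held there. The adjusted p in limma was 0.0565 for nupr1a without GFP- mock library 1 and 0.058 without 3 h library 2. It was 0.085 to 0.106 for CASKIN2 without mock library 1 or 2 or 3 h library 2 or 3, and 0.0526 to 0.156 for PPIL1 without mock library 1 or 2 or any 3 h library. The PPIL1 call was also lost with a pseudocount of 0.1 and with median-of-ratios scaling, at adjusted p of 0.0502 and 0.0597 in limma. krt91 had 172, 193 and 97.7 FPKM at GFP- 3 h, against 485, 461 and 218 FPKM in GFP- mock, and its adjusted p in limma was 0.0292 in the full set and 0.0523 to 0.147 without mock library 1 or 2 or 3 h library 1 or 3. CASKIN2 was called at 5 h as well, with a log2 change of -1.16 ± 0.19 and an adjusted p of 0.00522 in limma, or of 0.127 with the compared groups alone. s100t was called at 5 h, with a log2 change of -1.58 ± 0.34 and an adjusted p of 0.0285 in limma, from 9.35, 5.73 and 6.98 FPKM at GFP- 5 h, against 45.4, 21.1 and 13.5 FPKM in GFP- mock. Its adjusted p was 0.0687 to 0.146 without GFP- mock library 1 or 2 or 5 h library 2 or 3, and 0.271 with the compared groups alone. The unnamed IDs ENSDARG00000042997 and ENSDARG00000075490 and the clone-like si:ch211-281l24.3 were lower at both times, and the 3 h and 5 h means of ENSDARG00000042997 were 3.28 and 3.13 FPKM in GFP- cells, against 11.9 FPKM in GFP- mock. With the compared groups alone ENSDARG00000075490 kept both calls, while the adjusted p in limma was 0.0548 at 3 h and 0.0907 at 5 h for ENSDARG00000042997 and 0.176 and 0.167 for si:ch211-281l24.3.

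krt15, VIM and pabpc1b did not pass the test in GFP- cells at either time. krt15 had 38.6 to 52.2 FPKM at GFP- 3 h and 38.6 to 55.9 FPKM at GFP- 5 h, against 48.0 to 65.1 FPKM in GFP- mock. VIM had 47.9 to 52.8 FPKM at GFP- 3 h and 47.5 to 61.6 FPKM at GFP- 5 h, against 53.3 to 78.0 FPKM in GFP- mock. pabpc1b had 41.6, 43.4 and 52.4 FPKM at GFP- 3 h and 42.3, 49.5 and 47.8 FPKM at GFP- 5 h, against 35.01, 39.1 and 37.9 FPKM in GFP- mock. All its GFP- libraries of 3 h and 5 h thus lay above GFP- mock, an order whose share over all IDs was not computed.

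**Figure D3:**
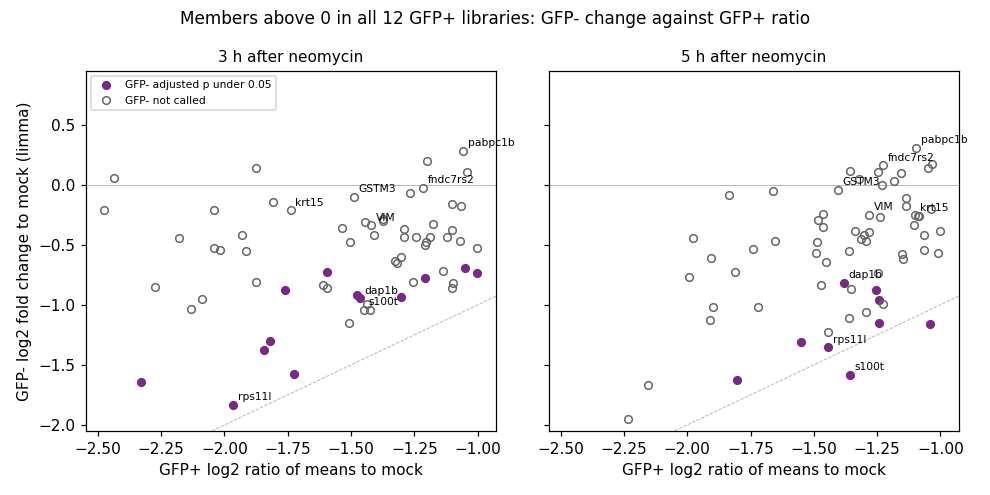
GFP- log2 fold change to GFP- mock from limma (vertical) against the GFP+ log2 ratio to GFP+ mock that chose the genes (horizontal) for the 67 members above 0 in all 12 GFP+ libraries, at 3 h (left) and 5 h (right); filled points passed an adjusted p of 0.05 in GFP- cells and the dashed line marks equal change. The rule limited the horizontal values, so the side of the dashed line on which points lie is not read; rps11l lies near it at both times, and pabpc1b is above 0.

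At 1 h the GFP- libraries carry the same date as GFP- mock. None of the 130 members was lower (7 at an unadjusted p under 0.05) and 3 were higher in limma, which is beside 0.823% of all IDs lower and 1.88% higher. Those shares are at the adjusted p, so the unadjusted count is a description. H1-10 and ADM were among them, with log2 changes of 1.05 ± 0.23 and 2.19 ± 0.44 (SE) and adjusted p of 0.0185 and 0.011 in limma. H1-10 had 702, 595 and 540 FPKM at GFP- 1 h, against 315, 315 and 253 FPKM in GFP- mock. ADM had 34.8, 96.0 and 47.2 FPKM at GFP- 1 h, against 18.4, 11.9 and 5.99 FPKM in GFP- mock. Without GFP- mock library 3 the calls of H1-10 and ADM were lost and 1 member was still higher. The call of H1-10 was also lost without GFP- 1 h library 1, and that of ADM without GFP- 1 h library 2, with adjusted p of 0.0916 and 0.0617 in limma. With the compared groups alone both calls were lost, with adjusted p of 0.0608 for H1-10 and 0.156 for ADM in limma.

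GFP+ and GFP- cells were also compared at 1 h, in libraries that share a date and that the rule did not use. There 48 of the 130 members were higher in GFP+ than in GFP- cells and 10 were lower by limma, where 22.7% of all IDs tested were higher and 48.2% lower. The rule asked for 10 FPKM or more in GFP+ mock, so the members were chosen for expression in GFP+ cells, and among the 7108 IDs tested at that GFP+ level 38.4% were higher and 33.7% lower. The members' share of higher calls, 36.9%, lay near that background. Their share of lower calls, 7.69%, was under the 33.7% there, and 72 of the 130 did not pass either way. The difference in shares was not tested. The median log2 difference of GFP+ minus GFP- was 0.65 over the members and -0.37 over all IDs tested. No median is given for the IDs at the members' GFP+ level, so the 2 medians are a description. Of the 67, 43 were higher and 3 lower. The 67 had to be above 0 in the GFP+ 1 h libraries of this comparison, so that split is not read as a result. fndc7rs2 had 74.6, 174 and 155 FPKM in GFP+ cells and 0, 0.227 and 0.321 FPKM in GFP- cells at 1 h, a log2 difference of 6.76 ± 0.23 with an adjusted p of 2.83e-14 in limma.

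s100t had 1054, 1087 and 965 FPKM in GFP+ cells and 10.8, 8.39 and 16.4 FPKM in GFP- cells at 1 h, a log2 difference of 6.38 ± 0.34. krt15 differed by 5.48 ± 0.24, HOXB13 by 3.77 ± 0.59, scpp9 by 3.84 ± 0.90, mfsd2al2 by 3.74 ± 0.25 and ccdc65 by 3.07 ± 0.22 on the log2 scale, all higher in GFP+ cells. All 7 cytoskeletal members and 11 of the 16 secreted, matrix and surface members were higher in GFP+ cells. Of all IDs tested at 10 FPKM or more in GFP+ mock, 38.4% were higher. These members were also all above 0 in every GFP+ library, so their counts favour GFP+ cells by selection. Among the lower ones of the 67 were grp and nupr1a. grp had 8.35, 9.397 and 6.24 FPKM in GFP+ cells and 22.1, 35.3 and 25.4 FPKM in GFP- cells at 1 h, a log2 difference of -1.66 ± 0.33 with an adjusted p of 0.000169 in limma. The difference of nupr1a, -0.57, did not pass with median-of-ratios scaling, where it was -0.17, and it had an adjusted p of 0.0603 without GFP+ 1 h library 3. rps11l, dap1b, H1-10, ADM and the 5 IDs described next did not pass the test between the populations. dap1b passed with median-of-ratios scaling, at a log2 difference of 0.60 with an adjusted p of 0.00222 in limma. ADM passed without GFP- 1 h library 1, at -1.19 with an adjusted p of 0.037, and rps11l passed with a replicate block by sort, with an adjusted p of 0.0423.

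The 5 most abundant members have no symbol in the name table. ENSDARG00000082789, ENSDARG00000081938, ENSDARG00000080128, ENSDARG00000080401 and ENSDARG00000081475 had GFP+ mock means of 59470, 53650, 48310, 37420 and 14800 FPKM. Together they held 6.84% to 7.37% of the FPKM sum of a library at GFP+ 3 h and 6.46% to 6.57% at GFP+ 5 h, against 12.8% to 15.4% in GFP+ mock. In GFP- cells they held 8.33% to 10.4% at 3 h and 9.08% to 10.7% at 5 h, against 12.3% to 17% in GFP- mock. The 1 h libraries held 15.4% to 16.7% in GFP+ cells and 13.8% to 16.8% in GFP- cells, in or near the mock range. The shares thus followed the experiment date in both populations, Apr2012 below Mar2012, and date and treatment cannot be told apart. ENSDARG00000081475 and ENSDARG00000081938 were also called lower in GFP- cells at 3 h, with log2 changes of -1.64 ± 0.30 and -0.92 ± 0.19 and adjusted p of 0.00575 and 0.014 in limma, or of 0.0777 and 0.143 with the compared groups alone.

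**Figure D4:**
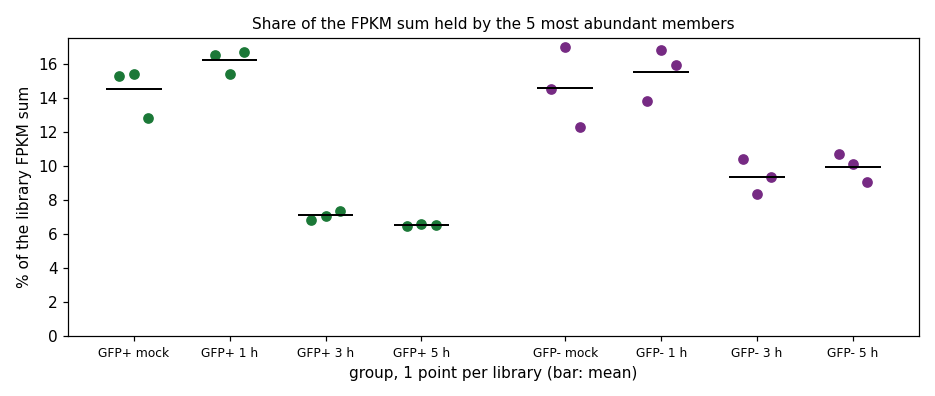
Share of each library's FPKM sum, in percent, held by the 5 most abundant members, with 1 point per library and the group mean as a bar, GFP+ groups on the left. In both populations every 3 h and 5 h library lies below every mock and 1 h library.

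The values of the 76 members listed at 0 in some GFP+ libraries came in few steps. FPKM divides by transcript length, so a small number of fragments on a short locus gives a high value. Multiplied by the relative depth, 437 of 446 values up to 10 times the smallest of their locus were whole multiples of it within 0.1, which is 98.0%. Counted in these steps, whose size in fragments was not tested, the 3 GFP+ mock libraries together held a median of 3 steps per locus, and 50 of the 76 loci held 3 steps or fewer. In 30 loci a value above 0 came from 1 of the 3 mock libraries, in 36 from 2 and in 10 from all 3. No fold change is given for these loci, and 40 of them were at 0 in all 6 GFP+ libraries of 3 h and 5 h.

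The 14 microRNA loci show this. The libraries were made from polyadenylated RNA, and mature microRNAs carry no poly(A) tail, so a value is for fragments over the locus and not for the mature microRNA. MIR137 was at 42.9 FPKM, or 1 step, in GFP+ mock library 3 and at 0 in the other 11 GFP+ libraries. MIR30C1 was at 126 FPKM, or 2 steps, in the same library and at 0 in the other 11 GFP+ libraries. dre-mir-375-2 was at 67.95 FPKM, or 1 step, in GFP+ mock library 2, at 0 in the other GFP+ libraries and above 0 in 9 of the 12 GFP- libraries. MIRLET7G was at 60.04 FPKM in GFP+ mock library 1 and at 51.0, 289 and 195 FPKM in the 1 h GFP+ libraries, so its highest values were not in mock.

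mir203b held the most steps of the microRNA loci, and it was at 143, 187 and 134 FPKM at GFP+ 3 h and 189, 0 and 50.4 FPKM at GFP+ 5 h, against 850, 120 and 0 FPKM in GFP+ mock. Mock library 1 accounts for 16 of its 18 mock steps, and every 3 h library lay above mock libraries 2 and 3. The 5S_rRNA locus ENSDARG00000084484 had 21 steps in GFP+ mock, spread as 6, 8 and 7 over the 3 libraries, beside 1 at GFP+ 3 h and 4 at GFP+ 5 h. That locus had 3 steps in GFP- mock, 3 at GFP- 1 h, 2 at GFP- 3 h and 1 at GFP- 5 h.

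Over the 76 loci GFP+ libraries had 41 to 48 above 0 in the mock group, and the 1 h ones had 16 to 27. The 3 h GFP+ libraries had 6 to 13 and those of 5 h had 7 to 18. GFP- libraries had 23 to 25 in the mock group and 20 to 32 an hour after neomycin. The 3 h GFP- libraries had 9 to 24 and those of 5 h had 17 to 22. The GFP+ 1 h libraries, of the same date as mock and not used by the rule, thus overlapped the GFP- range. The loci were chosen for a high GFP+ mock mean, so lower counts in the other groups are not read as a change after neomycin. In GFP- cells 63 of these loci were tested, and 1 was lower at 3 h and 1 at 5 h, the unnamed ENSDARG00000085981 both times, beside the 2.11% and 0.563% of all IDs that were lower.

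**Figure D5:**
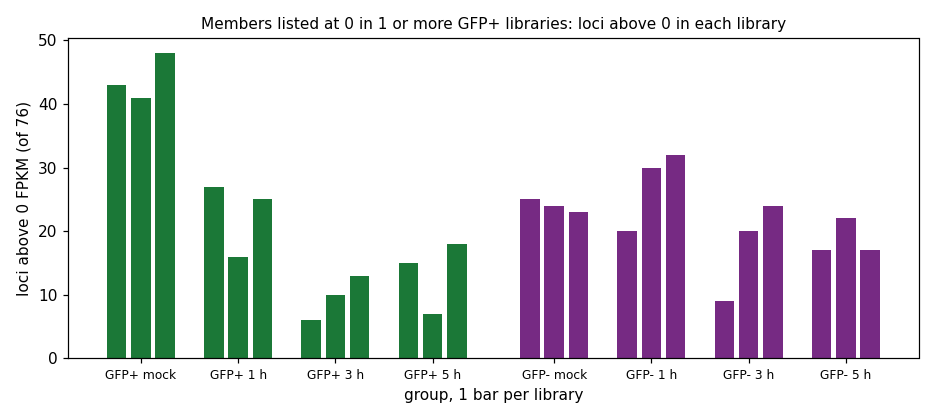
Number of the 76 loci above 0 FPKM in each library, with 1 bar per library, GFP+ groups on the left and GFP- groups on the right. GFP+ mock bars reach 41 to 48 because the rule asks for a high mock mean, and the other GFP+ bars lie between 6 and 27.

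Few members belonged to the pathway and cell type lists. krt15 and fndc7rs2 are on the lateral line list, s100t on the hair cell list, krt91 on the epidermis list, ca15c on the ionocyte list and TNC, by symbol, on the matrix list. For TNC the ID matched to the list was another ID of the same symbol with a higher mean. That ID did not meet the rule and stands among the other genes of the list. The Fgf, Wnt/beta-catenin, Notch, Bmp and Tgf-beta, retinoic acid and S phase and mitosis lists held 0 members. These lists matched 17 to 49 IDs each, and members are 143 of 31087 IDs, so holding 0 is not read as a result about these pathways. The other genes of these lists were tested in GFP+ cells by limma, where 8.15% of all IDs were lower at 3 h and 4.09% at 5 h. Only members were left out of the list counts below, while the shares over all IDs include members. Leaving members out removes genes that fell, so the counts of falls and rises are a description. Genes named from the lists were among those with the smallest p at GFP+ 3 h in limma, so their p-values are not read as support. IDs set aside, some of which met both limits of the rule, are among the hair cell, epidermal and matrix genes that fell. Of the 21860 IDs, 4357 were higher at 3 h and 3304 at 5 h. Of the 35 other lateral line genes tested, 7 fell and 2 rose at 3 h, and 3 fell and 3 rose at 5 h.

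cbln20, a cerebellin-like gene of supporting cells, averaged 247 FPKM at GFP+ 3 h, against 593 FPKM in GFP+ mock, with a log2 change of -1.24 ± 0.20 and an adjusted p of 0.000146 in limma. Of the 33 other hair cell genes, IDs set aside included, 8 fell and 1 rose at 3 h, and 3 fell and 1 rose at 5 h. pvalb9, a parvalbumin of hair cells, averaged 546 FPKM at GFP+ 3 h, against 1066 FPKM in GFP+ mock, a log2 change of -1.02 ± 0.25 with an adjusted p of 0.00494 in limma, and its 5 h change of -0.65 did not pass. Of the 36 other epidermal genes, IDs set aside included, 5 fell and 6 rose at 3 h. The 1 that fell at 5 h was an ID set aside. The junction gene JUP was higher at 3 h, at 308 FPKM against 170 FPKM in GFP+ mock. Its log2 change was 0.85 ± 0.14 with an adjusted p of 0.000136 in limma. Of the 47 other matrix genes, IDs set aside included, 8 fell and 3 rose at 3 h and 3 fell at 5 h.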

How the data were processed

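RNA sequencing of sorted GFP+ and GFP- cells gave 1 table of FPKM, deposited by the authors with 1 column per library. Per the labels, libraries were made from poly-A selected RNA with the TruSeq kit v2. The submitters' processing notes name CASAVA 1.8.2, TopHat 1.4.1, Cufflinks 1.3 and the build danRer7. Not given in the sources used here were the annotation release, the strand setting and the read counts. Of 31199 rows, 112 repeats of an ID were dropped and 31087 IDs kept, and 20499 had a symbol in the name table. Symbols in capitals are those of mammalian orthologs, and paralogs can share them.

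Members were found from group means with a pseudocount of 1 FPKM, and 11 IDs were set aside by the rule. Members and lists were chosen with earlier results of these data known. IDs at 1 FPKM or more in at least 3 of 24 libraries (21860) were tested as log2(FPKM + 1), with no further scaling, by limma 3.58.1 in R 4.3.3. The fit had 1 mean per group over all libraries and an intensity trend, was two-sided and used Benjamini-Hochberg adjustment with a threshold of 0.05. The fit was tested on simulated data. Replicates are separate samples of 200 pooled larvae by the labels. Named genes are list members and members with a symbol taken by the smallest 3 h and 5 h GFP+ ratios or the highest GFP+ mock means. Others were taken by the largest GFP- changes and population differences, and by the highest and lowest 1 h ratios. Further named members were added by role after their values were seen. Other settings were a pseudocount of 0.1, no filter, 5 FPKM as filter, median-of-ratios and quantile scaling, group medians, a ratio of 0.4, the contrast's own groups, a replicate block and leaving out each library. Chosen after seeing the data were leaving out the GFP+ libraries numbered 1, IDs above 0 throughout, and the higher row of repeats. Promoter motifs were not analysed here. Some IDs are not reported here.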

Additional observations from a re-analysis of the deposited data

Results flagged for a closer look

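pabpc1b, the poly(A)-binding protein gene, was below mock in every GFP+ library of 3 h and 5 h and above mock in every GFP- library of 3 h and 5 h. Its GFP- ratio to mock was 1.22 at 3 h and 1.24 at 5 h, while its GFP+ ratio was 0.481 at 3 h and 0.468 at 5 h. Its GFP- change did not pass the test at either time. The share of all IDs with every GFP- library above mock was not computed, so the order of libraries is a description. The difference between the populations was not tested, because the GFP+ values chose the gene.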

How the results depend on the processing

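The number of members was 143 and moved to 218 with median-of-ratios scaling, which kept all 143, to 83 with a ratio of 0.4 and to 67 among IDs above 0 in all 12 GFP+ libraries. It ran from 140 to 171 when single GFP+ libraries were left out, but 40 of the 143 met the rule in all 9 such calculations, 33 of the 67, 19 of the 39 with a gene symbol and 7 of the 76. Without the 3 GFP+ libraries numbered 1 there were 173 members, of which 102 were among the 143. With a fit of the contrast's own groups, 5 members were lower in GFP- cells at 3 h, 3 were lower and 1 higher at 5 h, and 1 was higher at 1 h; the cause was not tested. With quantile normalization 1 member was lower in GFP- cells at 1 h and 1 higher at 5 h. Settings other than leaving out a library gave 3 to 347 of all IDs lower at GFP- 1 h and 8 to 253 higher at GFP- 5 h. The matching counts over all IDs in each setting are not given for these member counts, apart from GFP- 3 h with own groups, so they are a description. Among the members above 0 throughout, 3 were lower in GFP+ than in GFP- cells at 1 h. Leaving out single libraries gave 9 to 16 members lower and 0 to 1 higher in GFP- cells at 3 h, with 9 without GFP- mock library 2 or 3 h library 2 or 3. It gave 7 to 11 lower at 5 h, 0 to 1 lower and 1 to 3 higher at 1 h, and, between GFP+ and GFP- cells at 1 h, 43 to 48 higher and 7 to 13 lower. No result reversed. Of the named genes' values with a library left out, 1010 kept their side of the threshold, 40 lost it and 6 gained it, and under the other settings 1240 kept it, 29 lost it and 7 gained it. Counts over all IDs at GFP- 3 h moved more: 461 IDs were lower, against 20 with own groups and 610 at most. Leaving out single libraries gave 111 to 281 of all IDs lower there. At GFP- 5 h it gave 33 to 91 lower, against 123 in the full set, and the other settings gave 10 to 156. At GFP- 1 h it gave 38 to 116 lower and 187 to 393 higher, against 180 and 411. Between GFP+ and GFP- cells at 1 h it gave 4623 to 4818 of all IDs higher and 10028 to 10394 lower, against 4964 and 10537.

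Over all IDs, the deviations of same-numbered libraries of different groups correlated weakly, from -0.086 to 0.17. No pair of groups was over 0.1 in all 3 numbers. Between GFP+ and GFP- cells of the same treatment and time the correlations were all above 0, at 0.032 to 0.113. Whether same-numbered libraries were paired was not tested, and the main fit did not model a pairing. With the number as a replicate block, 19 members were lower in GFP- cells at 3 h and 11 at 5 h, and 50 were higher in GFP+ than in GFP- cells at 1 h. The matching counts over all IDs are not given here, so these member counts are a description. ms4a17a.9, lowest in number 2 in all 8 groups, passed that last comparison with the replicate block by number (adjusted p 0.048 in limma) or by sort (0.0381), against 0.233 without. With 3 libraries a group and no counts, the precision of low values is not known.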

Other observations

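The same rule turned round, with 3 h as the high group and mock and 1 h as the low groups in GFP+ cells, took 218 IDs, of which 106 (48.6%) were listed at 0 in some GFP+ library. With 5 h as the high group it took 128 IDs, 63 of them (49.2%) with such zeros. Among the 143 members here the number was 76 (53.1%). With 1 h as the high group and 3 h and 5 h as the low groups it took 442 IDs, 111 of them (25.1%) with zeros.

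The unnamed member ENSDARG00000036895 had 81.53, 75.14 and 89.76 FPKM in GFP+ mock, 9.888, 8.412 and 36.52 at 1 h, 52.62, 51.11 and 12.45 at 3 h and 5.168, 28.43 and 19.34 at 5 h. In GFP- cells it had 39.92, 53.17 and 34.39 FPKM in mock, 2.617, 8.436 and 14.02 at 1 h, 56.74, 51.86 and 16.66 at 3 h and 3.598, 22.57 and 21.44 at 5 h. In both populations 3 h libraries 1 and 2 lay above every 1 h library, while library 3 of GFP+ 3 h lay within the GFP+ 1 h range.

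ms4a17a.9, a gene of the membrane-spanning 4-domain family, was lowest in the library numbered 2 in all 8 groups. It had 74.6, 35.8 and 71.8 FPKM in GFP+ mock, 41.6, 9.76 and 67.2 at 1 h, 9.18, 3.50 and 26.6 at 3 h and 7.86, 2.29 and 26.2 at 5 h. In GFP- cells it had 31.66, 11.87 and 13.53 FPKM in mock, 20.3, 6.76 and 18.05 at 1 h, 6.98, 6.58 and 10.78 at 3 h and 3.40, 1.14 and 10.31 at 5 h.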
